A study of Homo sapiens with 42 samples.

Results

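The GAGE, PAGE, XAGE, CT45, SSX, CTAG, CSAG and SPANX families are cancer-testis antigens, proteins that are normally made in germ cells of the testis and reappear in tumours. They were taken as the 81 rows, of 60240 in the deposited gene table, whose gene name starts with one of these family names followed by a digit or letter, without SSX2IP, an unrelated gene. The name pattern also caught 14 CTAGE rows, which belong to a different family related to MIA2 and were kept apart in every family sum. Values were also summed over each family, because many copies, chiefly in CT45, GAGE and CTAG, are close to identical. Stranded total RNA sequencing was done on 5 human acute myeloid leukaemia cell lines that the labels give as wild type: SKM-1, OCI-AML3, KG-1 and the pair MOLM-13 and MOLM-14. Cells received decitabine at 100 nM on each of days 0, 1 and 2, or the solvent DMSO, and RNA was taken at 72 hours from 3 libraries per line and treatment (30 libraries). MOLM-13 and MOLM-14 are sister lines from the same patient, and MOLM-14 is named in the sample labels but not in the series' design text. The whole culture was sequenced, so that more expressing cells and more RNA per cell cannot be told apart.

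Decitabine is a cytidine analogue that is built into DNA, where it traps DNA methyltransferases, and dividing cells then lose methylation. Promoters of cancer-testis genes are known to be methylated in most somatic cells, and loss of that methylation is a known route to their expression. GAGE, PAGE and XAGE proteins form a superfamily of small acidic antigens, and several give rise to peptides that T cells recognise. SSX proteins are nuclear repressors, best known from the SS18-SSX fusions of synovial sarcoma. CT45 proteins are nuclear germ cell proteins from a cluster of copies on the long arm of the X chromosome. CTAG1A and CTAG1B encode NY-ESO-1, a tumour antigen used in vaccines, and CTAG2 encodes its relative LAGE-1. SPANX proteins belong to the nuclear envelope of spermatids.

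Of the 81 rows, 66 lay on chromosome X (GENCODE 29, GRCh38) and 61 were annotated as protein-coding. The 11 GAGE rows lay between positions 49303669 and 49608536 and the 16 SSX rows on chromosome X between 48107992 and 52790305. The 5 XAGE rows lay between 52369030 and 52868068 and the 6 PAGE rows between 49687450 and 55264846. The 10 CT45 rows lay between 135713453 and 135947139, the 4 CSAG rows between 152708261 and 152760222 and the 3 CTAG rows between 154585143 and 154653579. No CTAGE row lay on chromosome X.

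RefSeq (GRCh38.p14) gave a promoter window, 250 bases before to 50 bases after the gene start, for 48 of the 81 genes. No methylation values were used here. The windows of 5 genes that were higher after decitabine in SKM-1 are printed because decitabine lowers DNA methylation, and capitals mark each CpG. They show GAGE12F (chrX:49560592-49560891, plus strand), PAGE1 (chrX:49695935-49696234, minus strand), XAGE1A (chrX:52495627-52495926, plus strand), CT45A1 (chrX:135713389-135713688, plus strand) and SSX2 (chrX:52707178-52707477, minus strand), each written in the direction of the gene.
GAGE12F: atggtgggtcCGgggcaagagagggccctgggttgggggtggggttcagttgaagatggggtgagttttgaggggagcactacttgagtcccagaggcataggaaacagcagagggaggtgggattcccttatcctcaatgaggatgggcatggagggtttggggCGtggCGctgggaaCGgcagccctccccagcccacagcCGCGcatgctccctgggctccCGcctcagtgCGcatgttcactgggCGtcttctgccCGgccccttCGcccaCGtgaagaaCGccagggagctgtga
PAGE1: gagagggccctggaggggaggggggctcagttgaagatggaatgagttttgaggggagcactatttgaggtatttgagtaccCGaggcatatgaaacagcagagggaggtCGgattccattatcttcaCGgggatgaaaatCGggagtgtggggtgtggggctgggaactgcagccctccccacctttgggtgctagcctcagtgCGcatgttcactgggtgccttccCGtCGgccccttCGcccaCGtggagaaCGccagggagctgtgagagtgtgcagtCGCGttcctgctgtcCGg
XAGE1A: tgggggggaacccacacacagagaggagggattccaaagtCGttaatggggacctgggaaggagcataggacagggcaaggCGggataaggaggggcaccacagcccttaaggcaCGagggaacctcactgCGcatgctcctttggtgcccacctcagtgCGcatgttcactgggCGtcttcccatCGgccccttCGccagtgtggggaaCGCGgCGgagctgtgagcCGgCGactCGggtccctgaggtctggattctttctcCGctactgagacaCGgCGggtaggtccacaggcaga
CT45A1: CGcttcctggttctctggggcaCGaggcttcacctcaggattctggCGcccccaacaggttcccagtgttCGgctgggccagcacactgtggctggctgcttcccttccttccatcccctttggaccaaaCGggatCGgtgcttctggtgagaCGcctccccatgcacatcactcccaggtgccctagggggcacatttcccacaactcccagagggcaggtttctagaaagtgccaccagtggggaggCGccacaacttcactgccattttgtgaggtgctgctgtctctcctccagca
SSX2: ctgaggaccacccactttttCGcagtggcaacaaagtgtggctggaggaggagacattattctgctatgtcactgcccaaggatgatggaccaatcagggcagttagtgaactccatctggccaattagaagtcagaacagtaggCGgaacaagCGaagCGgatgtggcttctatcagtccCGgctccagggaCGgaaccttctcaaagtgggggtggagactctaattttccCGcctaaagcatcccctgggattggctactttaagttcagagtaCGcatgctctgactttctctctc
The windows of GAGE12C, GAGE12E, GAGE12H, GAGE12J and GAGE2A had the same letters as that of GAGE12F.

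These promoters held a middling number of CpG sites. The median over the 48 windows was 12 CpG per window (range 1 to 20), against 14 over the 27305 windows of all genes and 14 over the 949 windows on chromosome X. By family the median was 14 in XAGE, 13 in GAGE, 11 in PAGE, 10 in CT45, 9 in SSX and 6 in SPANX, and it was 18 in both CSAG and CTAGE. The letters TATAAA, the core of a TATA box, were found on either strand in 0 of the 48 windows, against 11.95% of all windows. The letters CCGGAA, the core of an ETS factor motif, were found on either strand in 1 window, that of CT45A10, against 17.6% of all windows. A missing match says only that these letters are not in the window. A stretch of 23 bases was shared by the GAGE12F, PAGE1 and XAGE1A windows, and it was looked for after the windows had been seen.
Shared stretch: cctcagtgCGcatgttcactggg
It stood in 14 of the 27305 windows, all of them GAGE, PAGE1 or XAGE1 genes: 12 of the 81 genes, by their RefSeq windows, plus GAGE12D and GAGE12G. Counted from the RefSeq gene start, it ran from base -24 to -2 in GAGE12F, from -53 to -31 in PAGE1 and from -98 to -76 in XAGE1A.

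The depth of the libraries differed between the lines. Estimated depth, in units of 1000000 reads, was 50.9 to 69.3 in SKM-1 and 42.9 to 75.0 in MOLM-13, against 2.97 to 31.2 in KG-1, 2.51 to 25.9 in OCI-AML3 and 1.97 to 17.3 in MOLM-14. Replicate 2 of both treatments was shallow in OCI-AML3, KG-1 and MOLM-14. A single read was worth 0.279 to 0.488 normalised counts in MOLM-13 and SKM-1 and 0.595 to 10.3 in the other lines. A value of a few normalised counts in KG-1, MOLM-14 or OCI-AML3 can therefore be 1 read. Of 10 myeloid marker genes, 9 reached at least 10 normalised counts in every decitabine library and 8 in every DMSO library.

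The antigen rows were mostly silent. Of the 81 rows, 17 were listed at 0 in all 30 libraries, among them XAGE3, SSX7 and 7 SPANX genes, and another 29 stayed under 10 normalised counts. A further 7 reached 10 in fewer than 3 libraries. The remaining 28 passed the filter of at least 10 normalised counts in at least 3 libraries and were tested with limma on log2(normalised count + 1). They comprised 7 GAGE, 6 CT45, 5 SSX, 3 CTAGE, 2 CTAG, 2 PAGE, 2 XAGE and 1 SPANX row. The filter matters for the counts: 12 of the 28 (CTAG1A, CTAG2, GAGE12B, GAGE12C, GAGE12F, GAGE12H, GAGE12J, GAGE2A, PAGE1, SSX1, SSX2 and SSX3) reached 10 only in decitabine-treated SKM-1, so they had to be higher there to be tested at all. GAGE1 and PAGE5 reached 10 in other libraries too, but passed only with the SKM-1 decitabine libraries. For these 28, counts of calls describe the rows and do not support the response. A p-value given for one of the 12, or for GAGE1 or PAGE5, carries the same limit. The 12 were under 10 in every library of the other lines and had little room to be called there. Counts of calls in those lines, and the shares of all genes beside them, are limited by this.

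SKM-1 was the line in which these antigens rose. Summed over the 8 families without CTAGE, SKM-1 had 2169 ± 118 normalised counts after decitabine and 31.0 ± 4.83 after DMSO (SD, n = 3 each), a 69.9-fold ratio. Most of the DMSO sum was SPANXA2-OT1, a noncoding transcript, and without it SKM-1 had 2142 ± 116 after decitabine and 11.1 ± 3.08 after DMSO, a 193-fold ratio. With it, the 3 decitabine libraries had 2104, 2098 and 2306 and the 3 DMSO libraries 36.4, 26.96 and 29.8. In MOLM-13 the sum was 2489.6 ± 172 after decitabine and 2327 ± 47.0 after DMSO, and in MOLM-14 486 ± 195 after decitabine and 439 ± 51.3 after DMSO. In OCI-AML3 it was 885 ± 684 after decitabine and 461 ± 136 after DMSO, and in KG-1 81.5 ± 23.7 after decitabine and 68.0 ± 20.9 after DMSO (SD, n = 3 each). In these 4 lines the decitabine and DMSO libraries overlapped, though without SPANXA2-OT1 they did not in KG-1 (59.2 ± 15.9 after decitabine and 35.4 ± 5.39 after DMSO). No p-value is given for a sum.

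**Figure D1:**
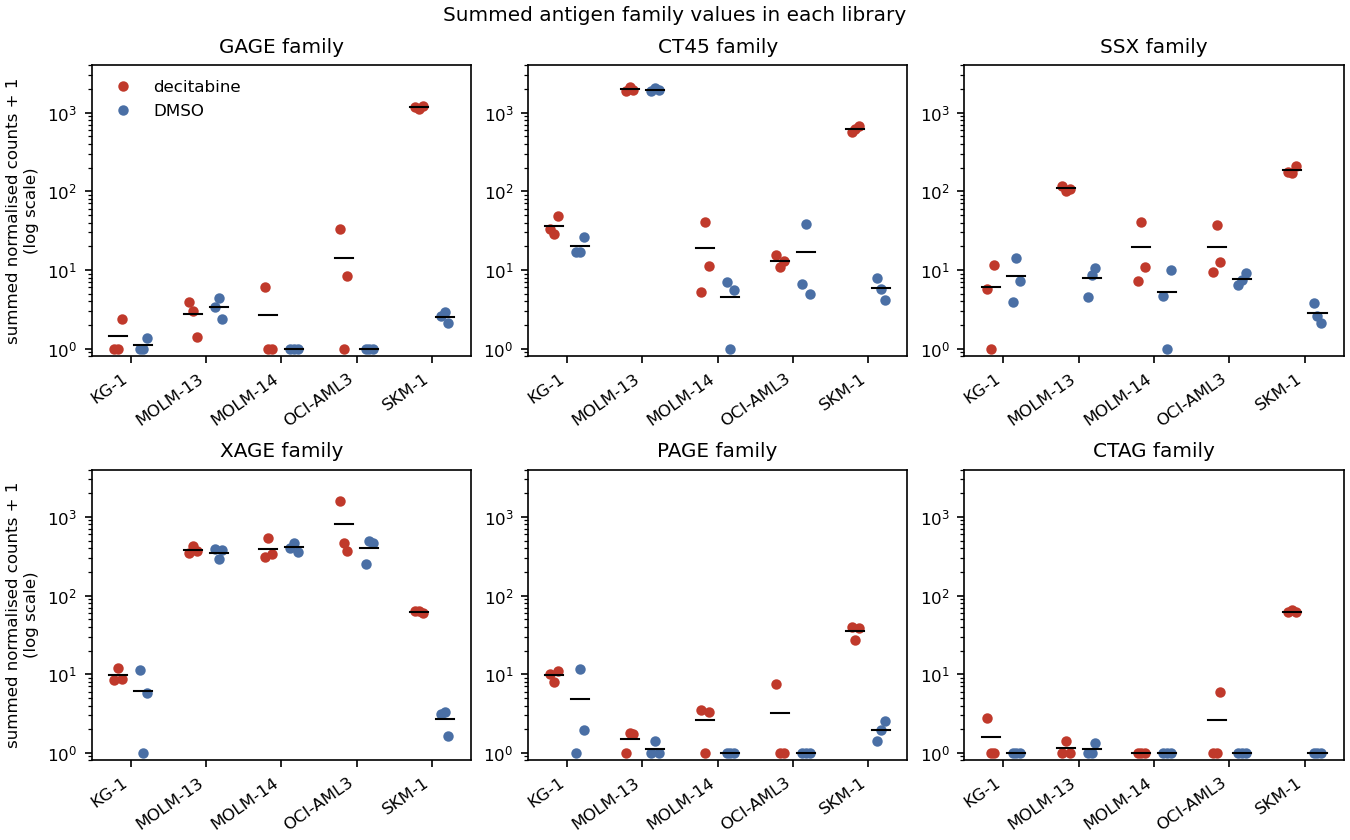
Summed normalised counts + 1 (log scale) of 6 antigen families in each library, with decitabine left of DMSO in each line; points are libraries and black bars the mean of 3. In SKM-1 each of the 6 sums is higher in every decitabine library than in every DMSO library, while CT45 in MOLM-13 and XAGE in MOLM-13 and MOLM-14 are high under both treatments.

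In the fit, 22 of the 28 tested rows rose in SKM-1 (limma, Benjamini-Hochberg adjusted p below 0.05), where 5.7% of all 22168 tested genes rose, and 0 fell, where 3.32% of all genes fell (at an unadjusted p below 0.05, 22 were higher and 1 lower). Of the 14 rows that pass the filter without the SKM-1 decitabine libraries 8 rose, against 5.02% of all genes that pass in that way. All 12 rows that reached 10 only in decitabine-treated SKM-1 rose, against 82.2% of all such genes. GAGE1 and PAGE5 rose too, against 29.9% of all genes that pass in their way. All 7 tested GAGE rows, both PAGE and both CTAG rows rose, as did 5 of 6 CT45, 4 of 5 SSX, 1 of 2 XAGE and 1 of 3 CTAGE rows. Over all rows with a value above 0 in SKM-1, tested or not, 33 of 57 had every decitabine library above every DMSO library, against 22.6% of all genes, and 0 of 57 had every decitabine library below, against 12.1%. A row at 0 in a DMSO library cannot have every decitabine library below it, and a row near 0 after DMSO can hardly fall. In every line most of the rows above 0 were at 0 in at least 1 DMSO library. Counts of rows that fell or were below therefore say little, here and in the other lines.

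GAGE gave the widest contrast. The GAGE sum in SKM-1 was 1163, 1127 and 1223 normalised counts after decitabine, against 1.60, 1.92 and 1.11 after DMSO, a 759-fold ratio of the means (1171 ± 48.9 and 1.54 ± 0.406). GAGE12F had 695, 736 and 783 in the decitabine libraries, against 0, 1.92 and 1.11 in the DMSO libraries. Its log2 fold change of 8.65 (SE 0.516, limma adjusted p = 1.17e-11) was the largest among the 28 rows in SKM-1. GAGE2A had 233, 207 and 219.9 after decitabine and 1.60, 0 and 0 after DMSO, a log2 fold change of 7.33 (SE 0.470).

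The other GAGE copies were seen almost only after decitabine. GAGE12C had 123, 69.2 and 96.6 normalised counts after decitabine and was listed at 0 in each SKM-1 DMSO library. GAGE12J had 61.9, 60.7 and 67.8 and GAGE12H 24.0, 25.5 and 27.4 after decitabine, and both were also listed at 0 in each SKM-1 DMSO library. GAGE1 had 15.7, 17.6 and 18.9 after decitabine and GAGE12B 10.5, 10.1 and 10.1, just inside the filter, with each SKM-1 DMSO library at 0 for both genes. A log2 fold change against libraries at 0 depends on the pseudocount of 1 and is no bound, so for such genes the values themselves carry the comparison.

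PAGE1, a GAGE-related antigen, had 24.0, 13.5 and 16.3 normalised counts in decitabine-treated SKM-1, against 0, 0 and 0.283 in DMSO (log2 fold change 4.09, SE 0.30, limma adjusted p = 4.25e-10). PAGE5 had 10.4, 6.89 and 10.3 after decitabine and was at 0 in each SKM-1 DMSO library (log2 fold change 3.33, SE 0.619, adjusted p = 0.000558). PAGE4, which stayed under the filter, had 2.75, 3.78 and 6.37 after decitabine, against 0, 0 and 0.692 after DMSO. The decitabine and DMSO libraries of SKM-1 did not overlap for any of these 3 PAGE genes.

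XAGE1A, the best known XAGE antigen, had 57.3, 59.2 and 56.4 normalised counts in decitabine-treated SKM-1, against 2.16, 2.33 and 0.616 in DMSO. Its log2 fold change was 4.51 (SE 0.672, limma adjusted p = 3.72e-05). XAGE1B is its near-identical copy, and the XAGE1B values of 5.06, 4.23 and 1.38 after decitabine, against 0 in each DMSO library, did not pass the test (adjusted p = 0.408). Summed as a pair, XAGE1A and XAGE1B averaged 61.2 ± 3.01 after decitabine and 1.70 ± 0.945 after DMSO (SD, n = 3 each).

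The CT45 sum in SKM-1 was 570.1, 619 and 684 normalised counts after decitabine, against 6.97, 4.69 and 3.18 after DMSO, a 126-fold ratio of the means. CT45A5 had 321, 341 and 338 after decitabine and 2.32, 0 and 2.26 after DMSO (log2 fold change 7.24, SE 0.756, limma adjusted p = 1.71e-07). CT45A1 had 161, 167 and 203 after decitabine and 0, 0 and 0.918 after DMSO (log2 fold change 7.16, SE 0.325). CT45A10 had 42.1, 71.1 and 82.3 after decitabine with each DMSO library at 0, and CT45A3 had 29.5, 27.2 and 36.0 after decitabine, against 0, 3.07 and 0. CT45A9 was lower, at 7.50, 12.4 and 2.78 after decitabine with each DMSO library at 0, and still passed the test (log2 fold change 2.92, SE 0.488). CT45A7 had 0, 0 and 20.6 after decitabine and 4.33, 0 and 0 after DMSO, and did not pass it (adjusted p = 0.944).

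The SSX sum in SKM-1 was 177, 167 and 208 normalised counts after decitabine, against 2.80, 1.63 and 1.13 after DMSO, a 99.3-fold ratio of the means. Most of the DMSO sum was SSXP10, a pseudogene on chromosome 6, and without it the sum was 160.8, 156 and 185 after decitabine, against 0.887, 0 and 0 after DMSO. SSX1, one of the usual SS18 fusion partners, had 11.6, 11.6 and 14.6 after decitabine and was at 0 in each SKM-1 DMSO library (log2 fold change 3.76, SE 0.324, limma adjusted p = 6.84e-09). SSX3 had 18.0, 14.5 and 14.6 after decitabine, again with each DMSO library at 0. SSX2, the other usual fusion partner, had 86.2, 21.8 and 97.3 after decitabine and 0 in each DMSO library (log2 fold change 5.86, SE 0.542, adjusted p = 2.36e-08).

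NY-ESO-1 and LAGE-1 transcripts appeared together in SKM-1. CTAG1A had 31.5, 26.2 and 23.2 normalised counts after decitabine and CTAG2 29.3, 37.5 and 36.0, and both were listed at 0 in each SKM-1 DMSO library. Their log2 fold changes were 4.80 (SE 0.264) and 5.13 (SE 0.368), with limma adjusted p = 3.44e-12 and 2.79e-10. The CSAG rows stayed under the filter, yet CSAG1 had 1.26, 3.08 and 2.91 after decitabine against 0 in each SKM-1 DMSO library, and the summed CSAG value was 0 in every library of the other 4 lines. SPANX genes proper did not pass the filter in any line. The tested SPANX row was SPANXA2-OT1, a noncoding transcript that overlaps SPANXA1 and SPANXA2. It had 25.5, 26.6 and 29.8 in SKM-1 after decitabine and 22.4, 15.5 and 21.9 after DMSO (adjusted p = 0.736).

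**Figure D2:**
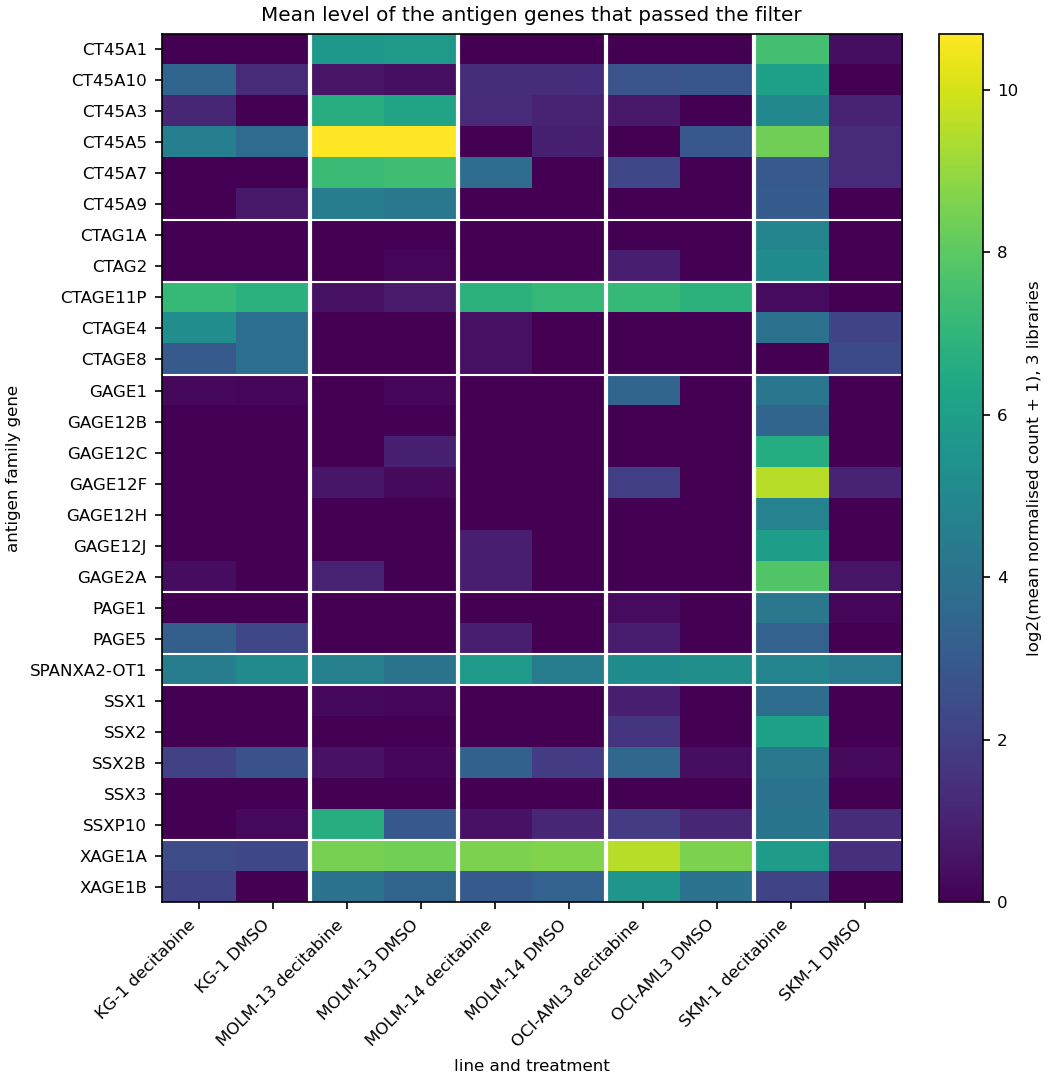
Mean normalised count over 3 libraries, as log2(mean + 1), of the 28 tested rows (down, grouped by family) in each line and treatment (across, decitabine left of DMSO). The SKM-1 decitabine column is bright for most CT45, GAGE, SSX and CTAG rows where the SKM-1 DMSO column is dark, and CTAGE11P is bright in OCI-AML3, KG-1 and MOLM-14 and dark in MOLM-13 and SKM-1.

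Many GAGE, CT45 and CTAG copies share most of their transcript sequence, which limits values given for a single copy. Most PAGE, XAGE and SSX rows share little, but both tested XAGE rows, SSX2, SSX2B, SSX4 and SSX4B share most of theirs. Reads were 50 bases long, and the share of 50-base windows of a gene's annotated transcripts that also occur in another gene was computed from GENCODE 29, a check chosen after the data had been seen. The median share was 88.9% over the 28 tested rows, with 12 rows at 90% or more and 4 under 10%. By family, over all rows, it was 93.9% in CT45, 92.9% in GAGE, 89.9% in CTAG, 12.8% in SSX, 6.08% in PAGE and 1.73% in XAGE. GAGE12F shared 96.1% of its windows, CT45A5 91.6% and CTAG1A 90.3%, whereas SSX1 shared 8.81%, and PAGE1 and SSXP10 shared 0%. SSX2, SSX4 and XAGE1A shared 100%, SSX2B 88.2% and XAGE1B 76.3%.

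**Figure D3:**
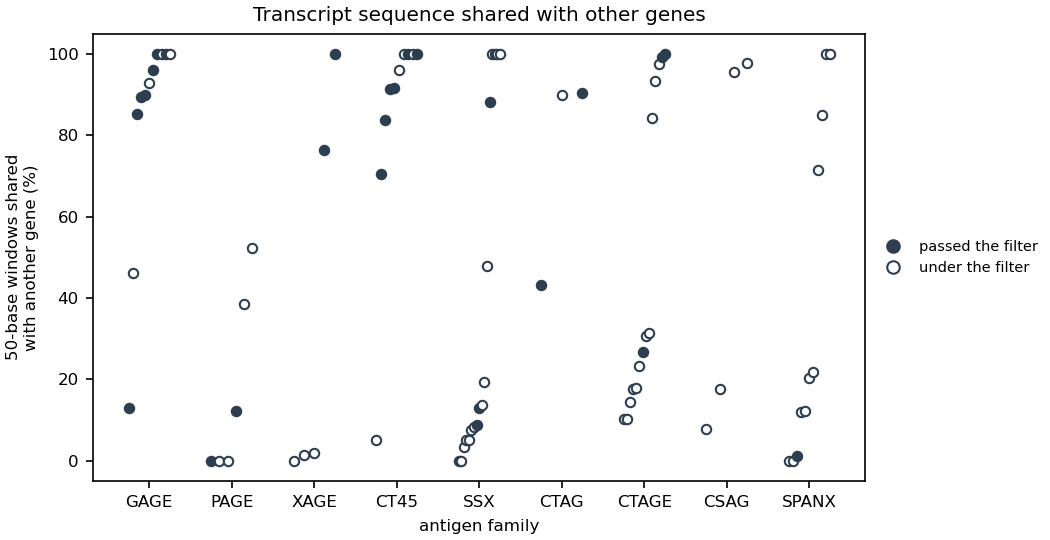
Percent of the 50-base windows of each gene's transcripts that also occur in another gene (vertical axis) for the 81 rows by family; filled points passed the filter and open points did not. Most GAGE and CT45 copies lie above 80%, while PAGE1 and SSXP10 lie at 0%.

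The deposited values showed this directly in SKM-1. SSX2 had 86.2, 21.8 and 97.3 normalised counts in the 3 decitabine libraries while its copy SSX2B had 0, 55.7 and 0. The sum of both was 86.2, 77.5 and 97.3 after decitabine, against 0.585, 0 and 0 after DMSO. SSX4 had 3.53, 49.9 and 53.9 after decitabine while SSX4B had 40.5, 0 and 0, and their sum was 44.1, 49.9 and 53.9 against 0 in each DMSO library. Neither SSX4 nor SSX4B passed the filter, since neither reached 10 in 3 libraries. In KG-1 after DMSO, CTAGE4 and CTAGE8 each had 16.0, 19.9 and 5.95, the same value in every library. In SKM-1, CTAGE4 had 15.4, 13.2 and 17.4 after decitabine, against 0, 0 and 10.8 after DMSO, while CTAGE8 had 0 in each decitabine library and 7.02, 5.85 and 0 after DMSO. Their sum averaged 15.3 ± 2.11 after decitabine and 7.88 ± 2.56 after DMSO (SD, n = 3 each), a smaller difference than the CTAGE4 log2 fold change of 2.83 (SE 0.631, limma adjusted p = 0.00357). Such pairs are read here by their sum, and a call for SSX2 or CTAGE4 alone is uncertain.

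The values of a family were divided unequally among its copies. In SKM-1 after decitabine, 63.0% of the GAGE sum was assigned to GAGE12F, 18.8% to GAGE2A, 8.23% to GAGE12C and 5.42% to GAGE12J. Of the CT45 sum, 53.4% went to CT45A5, 28.4% to CT45A1 and 10.4% to CT45A10 in decitabine-treated SKM-1. In MOLM-13, 83.3% of the CT45 sum went to CT45A5 after decitabine and 83.7% after DMSO. These are shares of normalised counts, not corrected for transcript length, and GAGE12F and GAGE2A overlap GAGE12E and GAGE1 in the annotation.

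**Figure D4:**
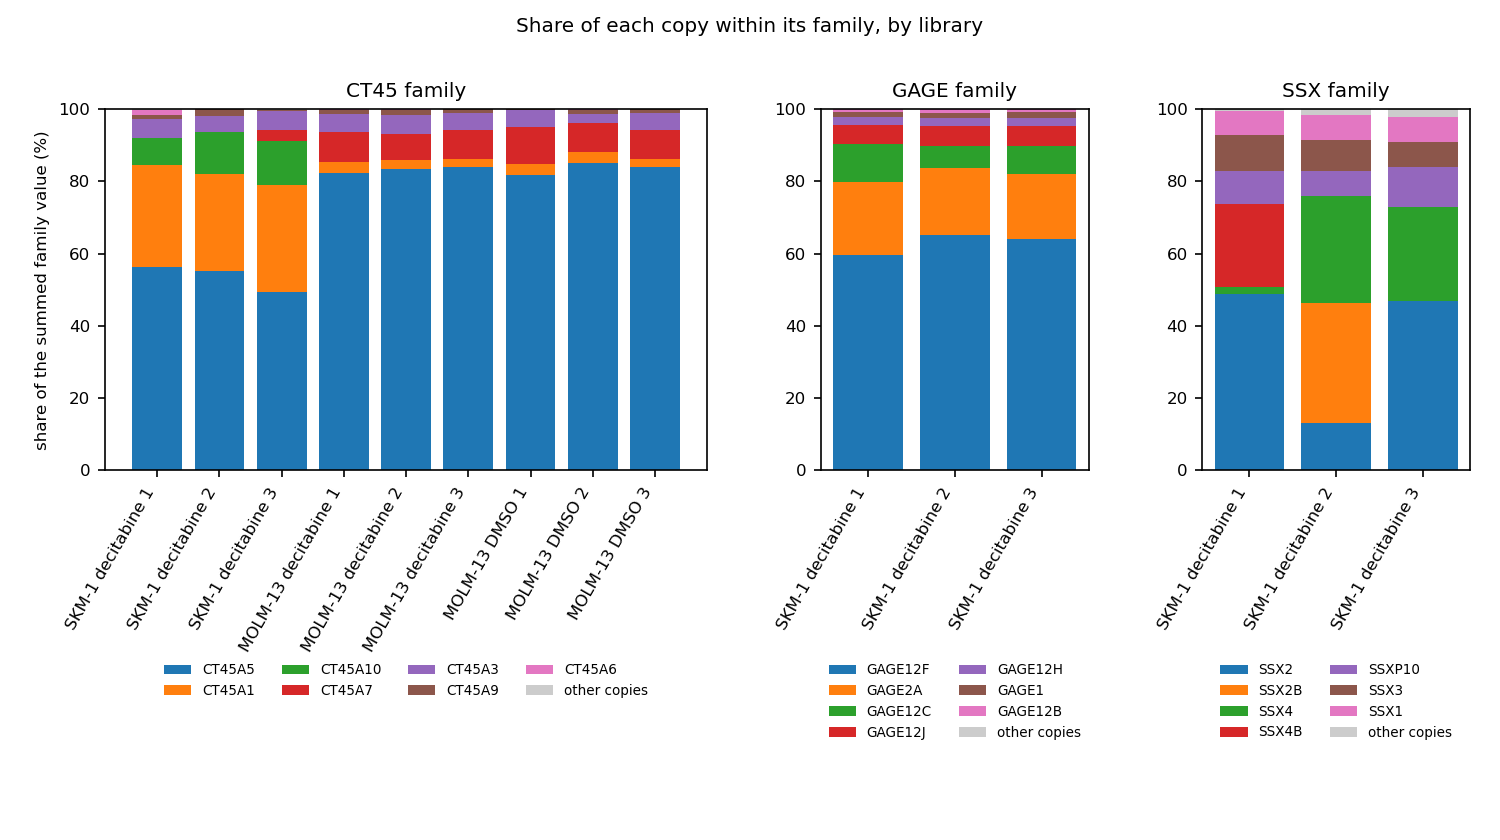
Percent of the summed CT45, GAGE or SSX value assigned to each copy, by library, in SKM-1 after decitabine and, for CT45, in MOLM-13 after decitabine and after DMSO. CT45A5 takes over 80% in every MOLM-13 library, and the SSX2 share moves to SSX2B in SKM-1 decitabine library 2.

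CT45A5 and CT45A1 are among the 14 rows that pass the filter without the SKM-1 decitabine libraries. For CT45A5 the SKM-1 response was above the mean response of the other 4 lines by 7.55 on the log2 scale (SE 0.845, limma adjusted p = 1.12e-06). An F-test over the 5 responses was past the threshold for 7 of these 14 rows (limma adjusted p below 0.05), where it was for 9.05% of all genes that pass the filter in the same way. Over all 28 rows it was for 20, where it was for 9.46% of all tested genes. However, 12 of the 20 reached 10 only in decitabine-treated SKM-1, which favours a difference. Of all genes that pass the filter in that way, 67.4% were past the threshold. GAGE1, also among the 20, passed the filter only with the SKM-1 decitabine libraries. The SKM-1 response was above the mean response of the other 4 lines for 20 rows, where it was for 2.86% of all genes, and for 6 of the 14. None was below that mean in SKM-1, where 1.01% of all genes were. Against the mean of their other 4 lines, 0 rows were above and 6 below in KG-1 (1.92% and 1.1% of all genes), 1 above and 5 below in MOLM-13 (0.429% and 0.952%), 0 above and 4 below in MOLM-14 (1.62% and 1.99%), and 0 above and 6 below in OCI-AML3 (1.41% and 1%). Each of those means includes SKM-1. Apart from CT45A1 and CT45A5, the rows below reached 10 only in decitabine-treated SKM-1. For them a place below a mean with SKM-1 in it was largely built in, and the shares of all genes are not a like comparison. By depth and by the 53 genes described with CTAGE11P, SKM-1 groups with MOLM-13 only. The labels used here name no library sets, and the part of any such set in a difference from the other lines was not tested. Of the 22 rows that rose in SKM-1, CTAGE4 (difference 2.39, SE 0.706, adjusted p = 0.0582) and SSXP10 (1.91, SE 0.701, adjusted p = 0.173) did not pass that test. On the mean of the 5 lines 21 rows rose, where 12% of all genes rose, and 0 fell, where 7.52% fell. This mean rested on SKM-1: over the other 4 lines 0 rows rose, where 8.53% of all genes did, and 0 fell, where 5.51% did (2 higher and 0 lower at an unadjusted p below 0.05). The 12 rows that reached 10 only in decitabine-treated SKM-1 were under 10 in every library of these 4 lines. They had little room to be called there, so the shares of all genes are not a like comparison. The spread is estimated over all 10 groups, and many of these rows were at 0 in every library of several groups. With SKM-1 fitted alone, CTAGE4 lost its call (adjusted p = 0.0508) and XAGE1B gained one (adjusted p = 0.00433).

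**Figure D5:**
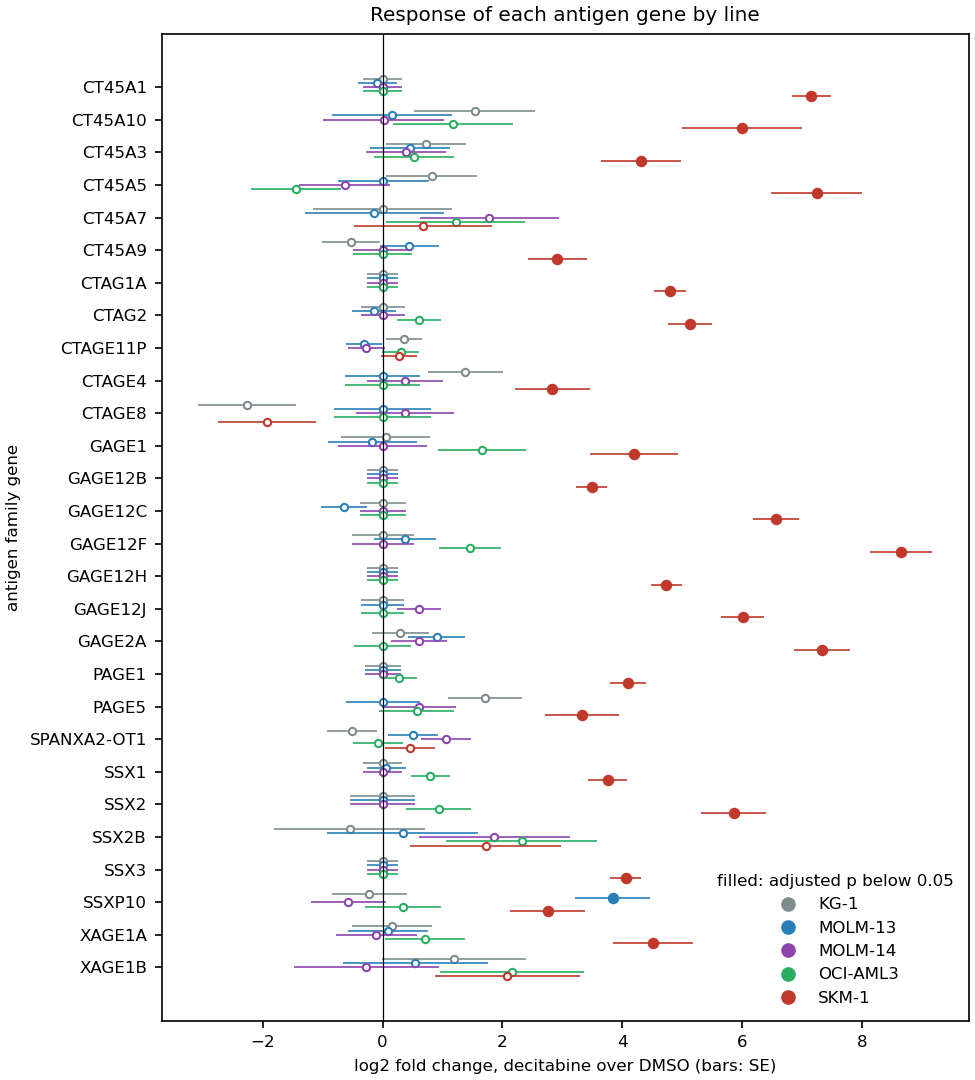
Log2 fold change, decitabine over DMSO, with its SE, of the 28 tested rows in each line (colours); filled points have a limma adjusted p below 0.05. The filled points are 22 rows in SKM-1, from 2.75 for SSXP10 to 8.65 for GAGE12F, and SSXP10 in MOLM-13.

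MOLM-13 held CT45 and XAGE transcripts under both treatments. Its CT45 sum was 1869, 2138 and 1930 normalised counts after decitabine, against 1870, 2054 and 1929 after DMSO. CT45A5 had 1541, 1783 and 1621 after decitabine and 1529, 1746 and 1621 after DMSO (log2 fold change 0.01, SE 0.756). CT45A1 had 52.5, 56.8 and 42.2 after decitabine and 57.7, 61.8 and 42.4 after DMSO, and the groups overlapped. CT45A3 had 96.6, 113 and 91.6 after decitabine, against 86.0, 51.2 and 87.8 after DMSO, which did not overlap but did not pass the test (adjusted p = 0.991). In all, 5 of 34 rows above 0 in MOLM-13 had every decitabine library above every DMSO library, against 17.6% of all genes, and 1 of 34 had them below, against 11.5%.

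The row that rose in MOLM-13 was SSXP10, an SSX pseudogene on chromosome 6. Of the 28 rows, 1 rose, where 1.45% of all genes did, and 0 fell, where 1.67% did. SSXP10 had 110.3, 94.1 and 100.1 normalised counts after decitabine, against 3.47, 6.81 and 9.50 after DMSO (log2 fold change 3.84, SE 0.627, limma adjusted p = 0.000743). It also rose in SKM-1, with 16.1, 11.2 and 22.9 after decitabine, against 1.91, 1.63 and 1.13 after DMSO (log2 fold change 2.75, adjusted p = 0.00429). In MOLM-13 it made up 94.1% of the SSX sum after decitabine, so the amount of that sum (15.6-fold ratio) was mainly SSXP10. Without SSXP10 the MOLM-13 SSX sum was 6.37 ± 0.487 after decitabine and 0.312 ± 0.541 after DMSO (SD, n = 3 each), which did not overlap. The ratio of these means, 20.4, rests on a DMSO value near 0. SSXP10 (chr6:118589070-118589634, plus strand) lies inside CEP85L on the other strand, and whether reads were counted by strand is not given in the sources used here. CEP85L averaged 357 after decitabine and 193 after DMSO in MOLM-13, and 505 and 504 in SKM-1; its part in the SSXP10 value was not tested. Another SSX signal in MOLM-13 was small: SSX4 had 2.55, 4.61 and 4.14 after decitabine, against 0, 0.324 and 0 after DMSO.

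The sister line MOLM-14 had little of the CT45 signal of MOLM-13. By depth and by the 53 genes described with CTAGE11P, MOLM-13 groups with SKM-1, and MOLM-14 with OCI-AML3 and KG-1. The labels used here name no library sets, and line and any such set cannot be told apart in this comparison. In MOLM-14 the CT45 sum was 4.18, 39.6 and 10.2 normalised counts after decitabine, against 6.12, 0 and 4.60 after DMSO. CT45A5 was at 0 in 5 of the 6 MOLM-14 libraries. The value of 39.6 came from replicate 2, a shallow library, and all of it was CT45A7. Without the shallow libraries the log2 difference of the CT45 sum in MOLM-14 was 0.27. Both lines had XAGE. The XAGE sum was 310.1, 533 and 336 after decitabine and 405, 465 and 359 after DMSO in MOLM-14. In MOLM-13 it was 345, 420.2 and 364 after decitabine and 387, 290.5 and 374 after DMSO, and the treatments overlapped in both lines. Of the 28 rows 0 rose in MOLM-14, where 6.26% of all genes did, and 0 fell, where 4.77% did (1 higher and 0 lower at an unadjusted p below 0.05). The row with that p was SPANXA2-OT1, with 24.1, 96.8 and 37.8 after decitabine and 18.1, 27.2 and 18.3 after DMSO (log2 fold change 1.06, adjusted p = 0.105). Of 24 rows above 0 in MOLM-14, 1 (SSX5) had every decitabine library above every DMSO library, against 7.92% of all genes, and 0 had them below, against 6.74%.

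OCI-AML3 had XAGE under both treatments and scattered low signal elsewhere. XAGE1A had 1466, 432 and 352 normalised counts after decitabine, against 249, 453 and 451 after DMSO (log2 fold change 0.71, SE 0.672, limma adjusted p = 0.634). Decitabine replicate 1 stood apart from the rest. That library also held GAGE1 at 30.3, where each other OCI-AML3 library was at 0. GAGE12F had 1.49, 0 and 7.36 after decitabine and 0 in each DMSO library (adjusted p = 0.109). The SSX sum was 8.34, 36.3 and 11.5 after decitabine, against 5.39, 6.53 and 8.03 after DMSO, which did not overlap. The 36.3 came from replicate 2, a shallow library where 1 read was worth 7.42 normalised counts. The closest values, 8.34 and 8.03, came from libraries where 1 read was worth 0.756 and 0.934. None of the 28 rows passed the test in OCI-AML3, where 3.74% of all genes rose and 1.64% fell (3 rows higher and 0 lower at an unadjusted p below 0.05). Of 30 rows above 0 in OCI-AML3, 0 had every decitabine library above every DMSO library, against 7.07% of all genes, and 0 had them below, against 5.37%. Single rows can miss a difference where reads are split between copies. The summed pair SSX2 and SSX2B had 6.07, 21.8 and 9.43 after decitabine, against 0, 0 and 0.916 after DMSO, which did not overlap. The 21.8 came from the shallow replicate 2. Without the 6 shallow libraries 4 rows rose there: CT45A10 (2.18, adjusted p = 0.0111), GAGE12F (2.19, adjusted p = 0.0119), SSX1 (1.19, adjusted p = 0.0201) and XAGE1B (3.95, adjusted p = 0.00419), each with its log2 fold change. This setting leaves out replicate 2 of both treatments, and its share of all genes called is not given. Of the libraries left out, DMSO replicate 2 had XAGE1B at 41.2 and CT45A10 at 18.6. Decitabine replicate 2 had SSX1 and GAGE12F at 0. In the libraries kept, SSX1 had 1.51 and 1.07 after decitabine, where 1 read was worth 0.756 and 1.07, against 0 after DMSO.

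KG-1 had little of any family but CTAGE (194 ± 18.4 after decitabine and 146 ± 6.71 after DMSO, SD, n = 3 each). Its CT45 sum was 32.0, 28.1 and 46.9 normalised counts after decitabine, against 16.1, 15.8 and 24.9 after DMSO, and the groups did not overlap. CT45A5 gave most of this, with 12.4, 28.1 and 29.4 after decitabine and 9.72, 9.20 and 18.6 after DMSO. PAGE5 had 8.03, 6.92 and 10.1 after decitabine, against 0, 10.7 and 0.957 after DMSO, where the 10.7 came from the shallow replicate 2 (adjusted p = 0.156). None of the 28 rows passed the test in KG-1, where 3.12% of all genes rose and 0.663% fell (2 rows higher and 1 lower at an unadjusted p below 0.05). Of 28 rows above 0 in KG-1, 2 had every decitabine library above every DMSO library, against 7.33% of all genes, and 0 had them below, against 4.55%. The 2 rows were CTAGE11P and CTAGE4. Without the 6 shallow libraries PAGE5 (2.84, adjusted p = 0.0025) and CT45A10 (2.30, adjusted p = 0.01) rose and CTAGE8 fell by 3.44 on the log2 scale (adjusted p = 0.00417). That setting leaves out replicate 2 of both treatments, and its share of all genes called is not given. Decitabine replicate 2 had CT45A10 at 0 and CTAGE8 at 21.5. CTAGE4 and CTAGE8 summed to 36.5, 43.0 and 51.1 after decitabine and 32.1, 39.8 and 11.9 after DMSO, which overlapped.

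Levels after DMSO differed between the lines for 11 of the 28 rows (limma F-test over the 5 DMSO means), where they did for 77.9% of all tested genes. The 11 were CT45A1, CT45A3, CT45A5, CT45A7, CT45A9, XAGE1A, XAGE1B, SSXP10 and the 3 CTAGE rows. The order of the mean XAGE sum after DMSO was MOLM-14 (409.7 ± 53.4), OCI-AML3 (401 ± 133), MOLM-13 (351 ± 52.4), KG-1 (5.05 ± 5.15) and SKM-1 (1.70 ± 0.945, SD, n = 3 each), and the libraries of the first 3 lines overlapped. For the CT45 sum it was MOLM-13 (1951 ± 93.9), then KG-1 (18.9 ± 5.14), OCI-AML3 (15.8 ± 19.0), SKM-1 (4.95 ± 1.91) and MOLM-14 (3.57 ± 3.19), and the last 4 were not separated beyond their spread, apart from KG-1, whose libraries were all above those of SKM-1 and MOLM-14. GAGE after DMSO was at or under 3.39 normalised counts in every library of every line. After decitabine the SKM-1 XAGE sum of 61.5 ± 2.98 stayed below the DMSO sum of each of the 3 XAGE-bearing lines, and its CT45 sum of 624 ± 56.9 below that of MOLM-13.

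CTAGE11P, a pseudogene of the CTAGE family, followed a pattern of its own. It had 102 to 156 normalised counts in every library of OCI-AML3, KG-1 and MOLM-14 and at most 1.24 in every library of MOLM-13 and SKM-1, and its response passed the test in no line. These are also the shallow and the deep lines, and sister lines fell on opposite sides. Over all 60240 genes, 53 genes, 33 of them pseudogenes, shared this split (at least 10 in every library of the first 3 lines and under 2 in every library of the others), against 3 genes with the reverse. Line and library batch cannot be told apart here.

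Other cancer-testis genes gave the setting. Of 54 listed genes outside these families 50 were in the table and 23 were tested. In SKM-1 16 of the 23 rose, where 5.7% of all genes did, and 0 fell, where 3.32% did, led by MAGEA4 (log2 fold change 9.18), HORMAD1 (7.30), TDRD1 (7.10) and DAZL (6.37). The filter limits this count too: 7 of the 23, among them TDRD1, reached 10 only in decitabine-treated SKM-1, and of the 13 that pass without those libraries 6 rose. In OCI-AML3 9 of 23 rose, where 3.74% of all genes did, led by MAGEA4 (6.65), HORMAD1 (5.57), MAGEB2 (4.67) and PRAME (3.74), in the line where 0 of the 28 family rows passed the test. In KG-1 4 of 23 rose, where 3.12% of all genes did, and 0 did in MOLM-13 and MOLM-14, where 1.45% and 6.26% did. MAGEA4 averaged 1156 normalised counts after decitabine and 1.01 after DMSO in SKM-1, and 124 and 0.274 in OCI-AML3. The difference between the 2 sets of genes was not tested. Of 14 genes of the DNA methylation machinery, DNMT3A rose (0.84) and TRIM28 fell by 0.29 on the log2 scale in SKM-1, beside 5.7% of all genes that rose and 3.32% that fell there, and 0 were called in the other lines.

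Markers of other cell types were checked in SKM-1. The 10 germ cell markers summed to 1363 to 1489 normalised counts after decitabine and 2661 to 2759 after DMSO, almost all of it KIT, which blood progenitors also express. DDX4, a germ cell helicase, averaged 12.7 after decitabine and 0.534 after DMSO, and PRM1, PRM2 and TNP1, which pack sperm DNA, were at 0 in all 30 libraries. The 7 lymphoid markers summed to 685 to 750.1 after decitabine and 725 to 747 after DMSO, and CD3E (46.7 and 1.39) and CD3D (11.6 and 0.143) rose among them. The 10 myeloid markers summed to 39340.2 to 50324 after decitabine and 61483 to 62752 after DMSO, with TYROBP higher (log2 fold change 2.24) and CTSG lower (-0.82). The 4 epithelial, 5 fibroblast and 5 placental markers summed to 525 to 576, 92.3 to 93.9 and 70.3 to 75.6 after decitabine, against 496 to 542, 27.2 to 44.96 and 44.7 to 56.0 after DMSO. Their part in the antigen values was not tested.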

How the data were processed

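The authors deposited 1 table of normalised expression signal for 60240 genes: per its name, estimated counts divided by DESeq2 normalization factors, neither per length nor on a log scale. Salmon 1.2.1, STAR, featureCounts, DESeq2, limma and hg38 are listed per the submitters' processing notes, with no role or order. Columns were matched to labels by line, treatment letter and number. The 12 HL-60 columns were not used, and 12 labelled libraries of 2 other lines were not analysed here. Whole reads could not be recovered: 44.2% to 68.7% of low values were whole multiples of the smallest step within 0.02. Depth was estimated from that step.

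Genes with at least 10 normalised counts in at least 3 libraries (22168) entered a model on log2(value + 1) in limma (version 3.58.1, under R 4.3.3, with statmod 1.5.0), with 10 group means, trend and robust variance estimation and 20 residual degrees of freedom. P-values were Benjamini-Hochberg adjusted over all genes tested and called below 0.05. A log2 fold change on this scale understates the change of low genes. Cultures were seeded in replicate wells, per the labels' protocols, so p-values measure the spread between libraries, which may be technical. Members and gene lists were chosen with earlier results of these data known. Named genes were the tested rows, with every library for those called, and up to 4 called genes of other lists by fold. GENCODE 29 gave positions for all 81 rows. Alternatives were other pseudocounts, filters, scalings, library weights, variance settings, single-line fits, a replicate block and leaving out libraries.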

Additional observations from a re-analysis of the deposited data

Results flagged for a closer look

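The response to decitabine differed between the 5 lines for 20 of the 28 tested rows, by a limma F-test over the line responses with p-values adjusted over all 22168 genes. The share of all genes past that threshold was 9.46%. The rows CTAG1A, CTAG2, PAGE1, SSX1, SSX2, SSX3 and the GAGE rows other than GAGE1 reached 10 normalised counts only in decitabine-treated SKM-1, so passing the filter already required a difference and their p-values are no support for one. GAGE1 also reached 10 in an OCI-AML3 decitabine library, but passed only with the SKM-1 decitabine libraries, so its p-value carries the same limit. Groups of 3 libraries are too small for a test of single outlying libraries, so none was run.

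Among GAGE rows the adjusted p was 2.56e-09 for GAGE12H, 4.21e-09 for GAGE12C, 1.34e-08 for GAGE12J, 1.50e-08 for GAGE12F, 6.50e-08 for GAGE2A, 2.24e-07 for GAGE12B and 0.02002 for GAGE1. In each of these rows SKM-1 had the highest log2 fold change. GAGE1 also had 30.3 normalised counts in 1 OCI-AML3 decitabine library.

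Among CT45 rows it was 1.10e-10 for CT45A1, 1.74e-05 for CT45A5, 0.00826 for CT45A9, 0.0183 for CT45A3 and 0.0261 for CT45A10. CT45A5 averaged 333 normalised counts after decitabine in SKM-1 and 1648 in MOLM-13, where it was as high after DMSO (1632).

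Among the other families it was 2.56e-09 for CTAG1A, 1.97e-07 for CTAG2, 2.47e-08 for SSX3, 4.96e-06 for SSX1, 1.26e-05 for SSX2, 2.95e-07 for PAGE1 and 0.00566 for XAGE1A. SSXP10 (adjusted p = 0.00262) differed in another way, with its highest log2 fold change in MOLM-13 (3.84) and a lower one in SKM-1 (2.75).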

How the results depend on the processing

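The count of 22 rows that rose in SKM-1 was 22 each time 1 library was left out, and 9 with a filter at 50, which leaves fewer genes to test. That filter also gave 9 on the mean of the lines, 8 for SKM-1 above the other lines, 9 for a differing response and 7 for a differing DMSO level. Without SKM-1, a mean chosen after seeing the data, 0 rows rose on the mean of the lines, and CT45A5 (-0.31), GAGE12C (-0.16) and CT45A1 (-0.021) changed sign. Without the 6 shallow libraries 2 rows rose and 1 fell in KG-1, 4 rose in OCI-AML3 (1 more than in the other lines), and 1 fell in SKM-1 and 1 on the mean. Library weights gave 1 that rose in KG-1 and 1 that fell in SKM-1, plain variance estimation 1 that rose in OCI-AML3, no filter 1 that rose in MOLM-14, and a pseudocount of 0.5 gave 0 for MOLM-13 above the other lines. Leaving out 1 library at a time gave 0 to 1 that rose and 0 to 1 that fell in KG-1, 0 to 1 that rose in MOLM-14, 0 to 2 that rose in OCI-AML3, 0 to 1 that fell in SKM-1, 21 to 22 that rose and 0 to 1 that fell on the mean, 19 to 21 for SKM-1 and 0 to 1 for MOLM-13 above the other lines, 17 to 21 for a differing response and 10 to 13 for a differing DMSO level. Log2 differences of SKM-1 sums at pseudocounts 0.5 and 5 were 9.18 and 7.49 for GAGE, 6.96 and 3.74 for CTAG, 4.62 and 2.71 for PAGE and 3.5 and 1.03 for CSAG. At 5 they were 6.00 for CT45, 4.79 for SSX, 3.32 for XAGE and 0.92 for CTAGE, with 3.28 for SSX in MOLM-13 and 0.38 for PAGE in MOLM-14. Scaling without mitochondrial genes gave 6.04 for CTAG. Summing tested rows only gave 4.67 for PAGE, 5.62 for SSX and 0.93 for CTAGE in SKM-1, -0.31 for CTAGE and 0.30 for GAGE in MOLM-13, and 1.73 for CT45 and 2.75 for SSX in OCI-AML3. Leaving out SSXP10, chosen after seeing the data, gave SSX differences of 7.08 in SKM-1 and 2.56 in MOLM-13. Without the shallow libraries the sums gave 0.27 for CT45 and 0.38 for SSX in MOLM-14, and 0.23 for SPANX and 0.61 for SSX in KG-1. For these the cause was not tested. The labels do not say that replicate numbers mark pairs, and 6 of 15 same-number correlations were above 0.1, so the numbers were not taken as pairs. As a hint from the data, the correlations ran from 0.0703 to 0.153 in OCI-AML3, KG-1 and MOLM-14, where each exceeded the best other number and replicate 2 is the shallow library of both treatments, and from -0.0225 to 0.0408 in MOLM-13 and SKM-1, and 12 of 15 libraries correlated best with their own number. With the replicate block 22 rows rose in SKM-1, 21 on the mean and 1 in MOLM-13, 19 rose more in SKM-1 than in the other lines, and 20 differed in response. Protein identity within families was not run. Depth limits KG-1, MOLM-14 and OCI-AML3, where 1 read was worth up to 10.3 normalised counts.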
